A study of Mus musculus with 4 samples.

Results

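The set described here holds the genes for proteins of the small nuclear ribonucleoproteins (snRNPs) and their main partners in pre-mRNA splicing: the Snrp, Sf3, Lsm, Srsf and Hnrnp genes. Members were taken by name from the gene table, as symbols that start with Snrp, Srsf, Sf3, Hnrnp, or Lsm and a digit, with a completed difference test. Of 61 genes so named, 59 had one, among 12634 tested genes of 23284 in the table. Snrpn, with 0.0225 FPKM in Srf KO cells and 0.00811 FPKM in WT cells, and Srsf12, with 0.0459 FPKM in Srf KO cells and listed at 0 in WT cells, were not tested. By name the members fell into 11 snRNP genes (Snrp), 8 SF3 genes, 12 Lsm genes, 10 SR genes (Srsf) and 18 hnRNP genes.

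The study set mice lacking Srf, the gene of serum response factor, against wild types by RNA sequencing of neutrophils sorted from bone marrow. There were 2 Srf KO samples and 2 WT samples, each of cells gated as high for Gr1, for the 7/4 antigen and for side scatter. The floxed or null allele, any Cre driver, and the age and strain of the mice are not given in the sources used here. Expression is in FPKM (sequenced fragments per kilobase of transcript, scaled to the mapped total), and the tables hold a single pooled value per genotype, so no value per sample can be shown and the sequencing depth behind a value is unknown. Folds are log2 of the Srf KO FPKM over the WT FPKM, with a standard error (SE) equal to the fold divided by the authors' test statistic, and a gene is called where the adjusted p is at most 0.05. Nothing in the labels says whether the samples came from separate animals, so any spread between them may be technical. How the authors' test estimated the variance of each gene is not stated in the sources used here. Its p-values may therefore not measure the spread of that gene between the samples.

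Introns are removed by the spliceosome, which is built on each transcript from snRNPs, particles of a short nuclear RNA and its proteins. A ring of Sm proteins forms on the U1, U2, U4 and U5 RNAs in the cytoplasm with the help of the SMN complex, whereas a ring of LSm proteins binds U6 in the nucleus, and a related cytoplasmic LSm ring takes part in mRNA decay. U1 marks the 5′ splice site, and U2, held at the branch point by the SF3A and SF3B complexes, marks the 3′ end of the intron. SR proteins bind exons and mostly promote their use, while hnRNP proteins coat the transcript and often promote skipping. Many SR genes limit their own protein by including an exon with a premature stop codon, so that the transcript is degraded. Neutrophils stop dividing and wind down much of their biosynthesis as they mature in the bone marrow.

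Members were called more often in the upward direction than tested genes at large. Of the 59, 21 were higher in Srf KO neutrophils and 5 were lower, against 17.7% of all tested genes called higher and 17.8% called lower (35.5% in either direction). As shares of the members these are 35.6% higher and 8.47% lower. At an adjusted p of at most 0.01, 16 members were called higher and 2 lower, where 10.8% of all tested genes were called higher and 13.1% lower, and at 0.1, 26 were called higher, where 22.5% of all were. With a minimum of 1.5-fold, 3 members were called lower (14.9% of all), and with folds centred on the median of all genes, 18 were called higher and 7 lower (14.5% and 20.5% of all). The Srf KO value exceeded the WT value for 44 of 59 members, and the median log2 fold was 0.36, against 0.08 over all tested genes. Differences between families were not tested. No Snrp or Srsf gene was called lower and no Sf3 gene was called higher, while the Lsm and Hnrnp genes went both ways. Proteins of snRNPs under other symbols, such as Snrnp200 and Prpf8, are in a list described below. There 3 of 35 genes were called higher and 7 lower (8.57% and 20%). In bulk RNA, fewer cells of a type and less RNA per cell cannot be told apart.

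**Figure D1:**
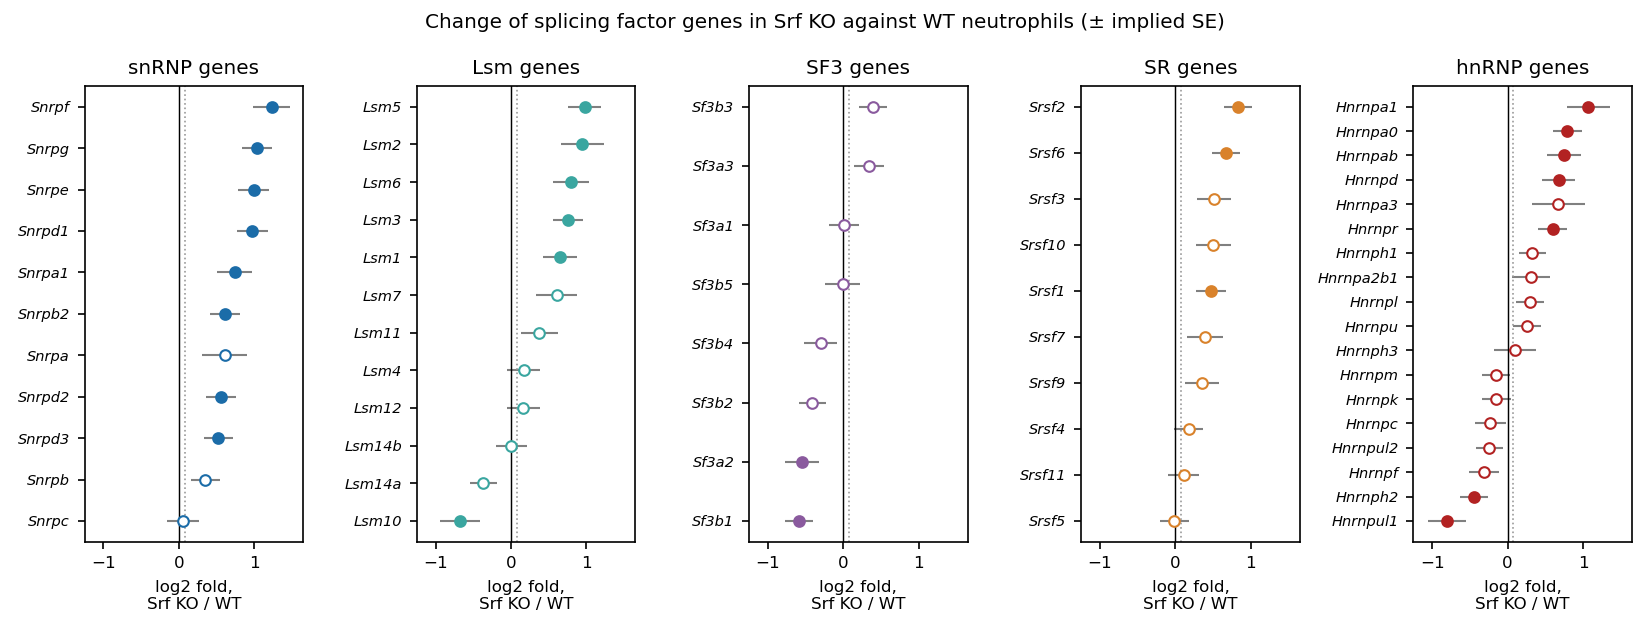
Log2 fold of each of the 59 genes, Srf KO over WT, with its SE as a bar, in 1 panel per family; filled points are called and the dotted line is the median of all tested genes. All 11 snRNP genes lie above 0, the SF3 genes lie on both sides, and the hnRNP genes span from -0.80 for Hnrnpul1 to 1.07 for Hnrnpa1.

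Sequence around the transcription start of 3 called genes is shown first. They are Snrpg and Snrpe, the Sm genes of highest level in Srf KO cells, and Hnrnpd. Hnrnpd is the only member whose window holds a CArG box, the DNA element that serum response factor binds. Whether sites in these sequences bear on the folds was not tested. Each line runs from 250 bases before the annotated start to 20 bases after it, 5′ to 3′ on the gene's strand, from RefSeq on GRCm38.p6: Snrpg at chr6:86371290-86371559 (plus strand), Snrpe at chr1:133610261-133610530 (minus strand) and Hnrnpd at chr5:99978919-99979188 (minus strand). Capitals mark matches to CCGGAAG, the core letters bound by ETS factors, in either orientation, and, in Hnrnpd, also the CArG box.
Snrpg: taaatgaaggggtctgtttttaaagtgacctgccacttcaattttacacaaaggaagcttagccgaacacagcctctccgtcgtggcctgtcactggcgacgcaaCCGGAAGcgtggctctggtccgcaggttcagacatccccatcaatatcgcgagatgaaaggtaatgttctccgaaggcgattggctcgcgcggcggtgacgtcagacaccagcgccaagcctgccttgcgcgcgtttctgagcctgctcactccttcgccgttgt
Snrpe: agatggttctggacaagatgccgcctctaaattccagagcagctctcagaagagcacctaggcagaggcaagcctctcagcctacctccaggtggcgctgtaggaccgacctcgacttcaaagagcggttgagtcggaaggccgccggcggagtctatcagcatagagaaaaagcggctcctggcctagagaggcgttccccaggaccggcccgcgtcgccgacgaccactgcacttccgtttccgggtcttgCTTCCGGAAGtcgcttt
Hnrnpd: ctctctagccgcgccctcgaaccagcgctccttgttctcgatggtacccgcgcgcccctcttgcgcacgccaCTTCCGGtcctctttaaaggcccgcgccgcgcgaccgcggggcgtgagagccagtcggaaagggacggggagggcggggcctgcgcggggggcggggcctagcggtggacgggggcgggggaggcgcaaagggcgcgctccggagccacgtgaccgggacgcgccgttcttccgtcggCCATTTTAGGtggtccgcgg
In Snrpg the match starts at position -145, where +1 is the start of transcription. In Snrpe a forward and a reverse match overlap and start at +7 and +4. Hnrnpd has a reverse match at -178 and its CArG box begins at +1.

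Promoter windows of 250 bases before to 50 bases after the start were found for 51 members. CCGGAAG, on either strand, occurred in 16 of these 51 windows (31.4%) and in 8.86% of all 32851 RefSeq windows. All windows include those of genes not tested here, whereas every member was tested, and no share over tested genes alone was computed. By call, it was in 5 of 19 windows of genes called higher, 1 of 5 of genes called lower and 10 of 27 of uncalled genes. By family it was in 5 of 6 SF3 windows, 4 of 9 snRNP windows, 4 of 10 SR windows, 2 of 17 hnRNP windows and 1 of 9 Lsm windows. The CArG box was in 1 of 51 member windows (1.96%), against 1.63% of all windows. Of the other motifs searched on both strands, GGGCGG was in 37 of 51 member windows (72.5%, against 35.7% of all), CCAAT in 26 (51.0%, against 37.4%), TATAAA in 6 (11.8%, against 13.6%), CACGTG in 5 (9.80%, against 7.15%) and the palindromic NRF1 motif in 0 (against 0.971%). These are descriptions of letters in the windows, and say nothing of binding.

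The 7 genes of the core Sm ring summed to 886 FPKM in Srf KO cells and 506 FPKM in WT cells, and 6 of the 7 were called higher, with a median log2 fold of 0.97. Relative to genes of like transcript length the median was 0.59, below the 0.78 of the hnRNP A/B and D types on that scale. Snrpg, which encodes SmG, had the highest level, at 294 FPKM in Srf KO cells and 143 FPKM in WT cells. Its log2 fold was 1.04 ± 0.20 (SE), with an adjusted p of 2.69e-06 in the authors' deposited table. Snrpe, for SmE, stood at 174 FPKM in Srf KO cells and 87.3 FPKM in WT cells, a log2 fold of 0.99 ± 0.20 (adjusted p = 9.42e-06 in the authors' deposited table). SmE, SmF and SmG join the ring as a preformed unit, and the genes of all 3 were among those with the largest folds.

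Snrpf, for SmF, had the largest fold of any member. It reached 27.0 FPKM in Srf KO cells, against 11.5 FPKM in WT cells, a log2 fold of 1.23 ± 0.25 (adjusted p = 1.22e-05 in the authors' deposited table). Its row, at chr10:93540632-93605245 in mm10, also spans Ccdc38 and 4933408J17Rik, and the libraries do not keep strand, so reads of these genes cannot be told apart where they overlap. Snrpd1, for SmD1, which pairs with SmD2, had 62.2 FPKM in Srf KO cells and 31.7 FPKM in WT cells, and a log2 fold of 0.97 ± 0.20 (adjusted p = 2.27e-05 in the authors' deposited table).

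The remaining Sm genes moved less. Snrpd2 had 122 FPKM in Srf KO cells and 82.6 FPKM in WT cells, a log2 fold of 0.56 ± 0.20 (adjusted p = 0.0209 in the authors' deposited table). Snrpd3, whose product pairs with SmB, had 142 FPKM in Srf KO cells and 99.0 FPKM in WT cells, a log2 fold of 0.52 ± 0.19 (adjusted p = 0.0236 in the authors' deposited table). Neither Snrpd2 nor Snrpd3 was called when folds were centred on the median of all genes or adjusted for transcript length. Snrpb, which encodes SmB itself, was the only Sm gene not called, at 65.0 FPKM in Srf KO cells and 51.0 FPKM in WT cells (log2 fold 0.35 ± 0.19, adjusted p = 0.140 in the authors' deposited table). The Sm proteins are needed in equal numbers in the ring, yet the folds of their genes ran from 0.35 to 1.23. The difference between these folds was not tested. Several Sm genes have near-identical processed copies in the genome, and how shared reads were divided is not stated, so their levels are uncertain to that extent.

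Proteins specific to U1 or U2 showed a mixed picture, with 2 of 4 genes called higher. Both U2 genes were called, though not when folds were adjusted for transcript length. Snrpa1, for the U2 protein A′, had 15.5 FPKM in Srf KO cells and 9.28 FPKM in WT cells (log2 fold 0.74 ± 0.23, adjusted p = 0.00591 in the authors' deposited table). Its partner Snrpb2, for U2 B″, had 36.3 FPKM in Srf KO cells and 23.7 FPKM in WT cells (log2 fold 0.62 ± 0.20, adjusted p = 0.00964 in the authors' deposited table). Neither U1 gene of the set was called. Snrpa, for the U1 protein A, had a similar fold of 0.61 but a wider SE of 0.30, at 13.0 FPKM in Srf KO cells and 8.50 FPKM in WT cells (adjusted p = 0.0947 in the authors' deposited table). Snrpc, for the U1 protein C, stood at 39.6 FPKM in Srf KO cells and 38.1 FPKM in WT cells, a log2 fold of 0.05 ± 0.21 (adjusted p = 0.870 in the authors' deposited table). Snrnp70, a U1 gene outside the name rule, had 45.8 FPKM in Srf KO cells and 52.6 FPKM in WT cells. It was not called either (log2 fold -0.20 ± 0.19).

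**Figure D2:**
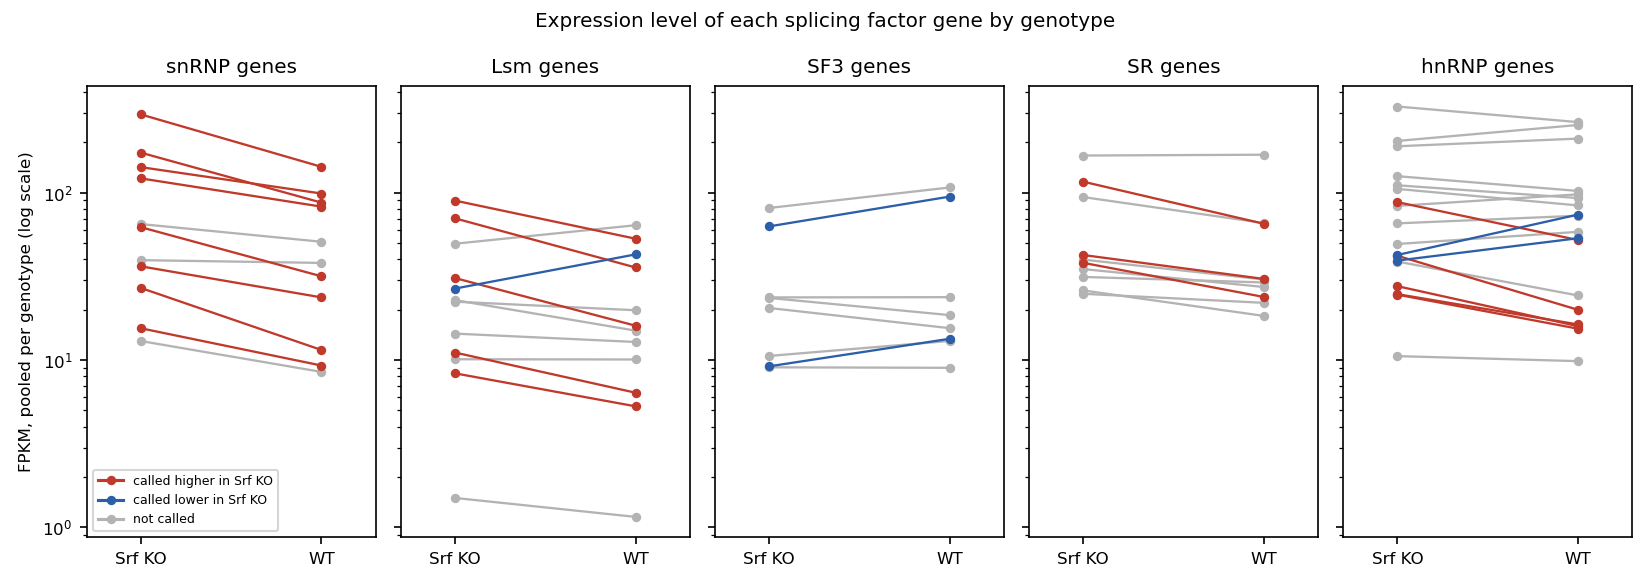
FPKM of each gene on a log axis, Srf KO left and WT right, joined by a line, in 1 panel per family; red lines are called higher in Srf KO, blue lines called lower and grey lines not called. The snRNP lines all slope down towards WT, while both blue SF3 lines, Sf3b1 and Sf3a2, slope up towards WT.

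Lsm1 to Lsm7, the proteins of the cytoplasmic decay ring, of which all but Lsm1 are also in the nuclear U6 ring, summed to 256 FPKM in Srf KO cells and 151 FPKM in WT cells. Of these 7 genes, 5 were called higher and none lower, with a median log2 fold of 0.76. Lsm5 had 70.3 FPKM in Srf KO cells and 35.8 FPKM in WT cells, a log2 fold of 0.98 ± 0.22 (adjusted p = 0.000118 in the authors' deposited table). Lsm2 followed with 30.9 FPKM in Srf KO cells and 16.1 FPKM in WT cells, a log2 fold of 0.95 ± 0.29 (adjusted p = 0.00497 in the authors' deposited table). Lsm3, the most abundant of the ring, had 89.8 FPKM in Srf KO cells and 53.1 FPKM in WT cells, a log2 fold of 0.76 ± 0.20 (adjusted p = 0.0013 in the authors' deposited table).

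Lsm1, the subunit found only in the cytoplasmic ring, was also called higher. It had 8.33 FPKM in Srf KO cells and 5.29 FPKM in WT cells, a log2 fold of 0.65 ± 0.22 (adjusted p = 0.0138 in the authors' deposited table). Lsm6 had 11.1 FPKM in Srf KO cells and 6.38 FPKM in WT cells, a log2 fold of 0.80 ± 0.24 (adjusted p = 0.00377 in the authors' deposited table). Lsm7 just missed the threshold, at 22.8 FPKM in Srf KO cells and 15.0 FPKM in WT cells (log2 fold 0.61 ± 0.27, adjusted p = 0.0685 in the authors' deposited table). Lsm4 had 22.3 FPKM in Srf KO cells and 19.9 FPKM in WT cells, a log2 fold of 0.17 ± 0.22 (adjusted p = 0.576 in the authors' deposited table). All 7 genes of the ring thus had a Srf KO value above the WT value.

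Lsm10 was the only LSm gene called lower. With LSm11 its product replaces SmD1 and SmD2 in the ring of the U7 snRNP, which processes the ends of histone mRNAs rather than introns. Lsm10 had 26.8 FPKM in Srf KO cells and 42.8 FPKM in WT cells, a log2 fold of -0.68 ± 0.26 (adjusted p = 0.0311 in the authors' deposited table). Lsm11 had 1.499 FPKM in Srf KO cells and 1.16 FPKM in WT cells, a log2 fold of 0.38 ± 0.25 (adjusted p = 0.229 in the authors' deposited table). Among Lsm12, Lsm14a and Lsm14b, which lie outside these rings, none was called, and Lsm14a was the most abundant, at 49.6 FPKM in Srf KO cells and 64.0 FPKM in WT cells (log2 fold -0.37 ± 0.18, adjusted p = 0.102 in the authors' deposited table).

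The SF3 genes, whose products tie U2 to the branch point, did not share the rise of the Sm genes: none of 8 was called higher and 2 were called lower, with a median log2 fold of -0.15. The 2 called lower are 25% of this small family, against 17.8% of all tested genes called lower and 17.7% called higher. Sf3b1, the scaffold that clamps the branch point helix, had 63.0 FPKM in Srf KO cells and 94.9 FPKM in WT cells. Its log2 fold was -0.59 ± 0.19, with an adjusted p of 0.0065 in the authors' deposited table. Sf3a2, a subunit of SF3A, had 9.18 FPKM in Srf KO cells and 13.4 FPKM in WT cells, a log2 fold of -0.55 ± 0.22 (adjusted p = 0.0385 in the authors' deposited table). Sf3b2, the most abundant SF3 gene and a partner of Sf3b4, lay just outside the threshold, at 81.1 FPKM in Srf KO cells and 108 FPKM in WT cells (log2 fold -0.41 ± 0.18, adjusted p = 0.0666 in the authors' deposited table).

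Within each SF3 complex the folds went both ways. Sf3b3 had 20.5 FPKM in Srf KO cells and 15.5 FPKM in WT cells (log2 fold 0.40 ± 0.19, adjusted p = 0.0808 in the authors' deposited table). Sf3a3 had 23.5 FPKM in Srf KO cells and 18.6 FPKM in WT cells (log2 fold 0.34 ± 0.20, adjusted p = 0.175 in the authors' deposited table). Sf3a1 and Sf3b5 had log2 folds of 0.01 and 0.00. The loci of Sf3b3 and Sf3a3 also hold Snord111 and Mir697, and without both genes the SF3 median was -0.35.

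SR genes leaned upward with smaller folds: 3 of 10 were called higher and none lower, with a median log2 fold of 0.43, and 9 of 10 had a Srf KO value above the WT value. The 30% called higher stands against 17.7% of all tested genes. Srsf2, which binds exonic enhancers and whose own transcript is under feedback, had 116 FPKM in Srf KO cells and 65.3 FPKM in WT cells. Its log2 fold was 0.84 ± 0.18, with an adjusted p of 6.04e-05 in the authors' deposited table. Srsf6 had 38.1 FPKM in Srf KO cells and 23.8 FPKM in WT cells, a log2 fold of 0.68 ± 0.19 (adjusted p = 0.00159 in the authors' deposited table). Srsf1, the founding SR protein, was near the threshold and not called with centred folds, at 42.5 FPKM in Srf KO cells and 30.5 FPKM in WT cells (log2 fold 0.47 ± 0.20, adjusted p = 0.0483 in the authors' deposited table).

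Srsf3, the smallest SR protein, fell just outside the threshold at the gene level, with 94.3 FPKM in Srf KO cells and 66.0 FPKM in WT cells (log2 fold 0.52 ± 0.22, adjusted p = 0.0568 in the authors' deposited table). Srsf5, the most abundant SR gene, was level, at 167 FPKM in Srf KO cells and 169 FPKM in WT cells (log2 fold -0.02 ± 0.19, adjusted p = 0.962 in the authors' deposited table). The log2 folds of the other uncalled SR genes ran from 0.11 for Srsf11 to 0.51 for Srsf10. The folds of Srsf2 and Srsf5 were the furthest apart within the family, and their difference was not tested.

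The isoform table splits several SR genes into coding transcripts and transcripts with a premature stop, and 2 exons with the stop are shown. The annotated forms also differ outside the exon, so their levels do not rest on it alone. Those with the exon have 2594 bases in Srsf3 and 1991 in Srsf7, against 2618 and 2288 without it. Both come from mm10 and lie in GENCODE transcripts classed as subject to nonsense-mediated decay. The Srsf3 exon is chr17:29039454-29039909, 456 bases on the plus strand, of which the first 34 bases, chr17:29039454-29039487, reach the stop. The Srsf7 exon is chr17:80204622-80205081, 460 bases on the minus strand, of which the first 28 bases, chr17:80205054-80205081, reach the stop. Both stretches are written 5′ to 3′ on the gene's strand, and capitals mark the in-frame stop codon.
Srsf3 exon: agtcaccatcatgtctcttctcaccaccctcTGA
Srsf7 exon: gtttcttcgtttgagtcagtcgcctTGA
With the exon the Srsf3 reading frame is 372 bases long, against 492 without it, and that of Srsf7 is 411 bases, against 714.

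The form of Srsf3 without the stop exon (NM_013663) was called higher although the gene was not. It had 78.6 FPKM in Srf KO cells and 42.9 FPKM in WT cells, a log2 fold of 0.87 ± 0.22 (adjusted p = 0.000733 in the authors' deposited table). The form with the exon (NR_036613) had 15.6 FPKM in Srf KO cells and 23.01 FPKM in WT cells, a log2 fold of -0.56 ± 0.40 (adjusted p = 0.323 in the authors' deposited table). The non-coding form thus made up 16.6% of Srsf3 FPKM in Srf KO cells and 34.9% in WT cells. The test of the difference between both folds was not made, because the tables hold no values per sample.

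Srsf7 and Srsf9, the other SR genes with a non-coding form in the table, had the same order of shares. In Srsf7 the non-coding form (NR_036615) had 7.35 FPKM in Srf KO cells and 10.6 FPKM in WT cells (log2 fold -0.53 ± 0.60, adjusted p = 0.577 in the authors' deposited table). That is 18.4% of Srsf7 FPKM in Srf KO cells and 35.1% in WT cells. In Srsf9 the non-coding form (NR_036616) took 6.26% in Srf KO cells and 12.004% in WT cells, from levels of 2.19 FPKM in Srf KO cells and 3.28 FPKM in WT cells. None of the 3 non-coding forms was called on its own. Over the 114 genes of the table with both kinds of form, the non-coding share was lower in Srf KO cells in 51, and the median difference, Srf KO minus WT, was 0.92 percentage points.

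A coding Srsf7 form (NM_001195485) was called higher, with 6.37 FPKM in Srf KO cells and a listed 0 in WT cells (adjusted p = 0.000323 in the authors' deposited table). No fold can be given, and a listed 0 can be a failed estimate; the other coding forms of the gene were above 0 in both genotypes. The full-length form (NM_146083) had 17.0 FPKM in Srf KO cells and 14.2 FPKM in WT cells (log2 fold 0.26 ± 0.30, adjusted p = 0.575 in the authors' deposited table).

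**Figure D3:**
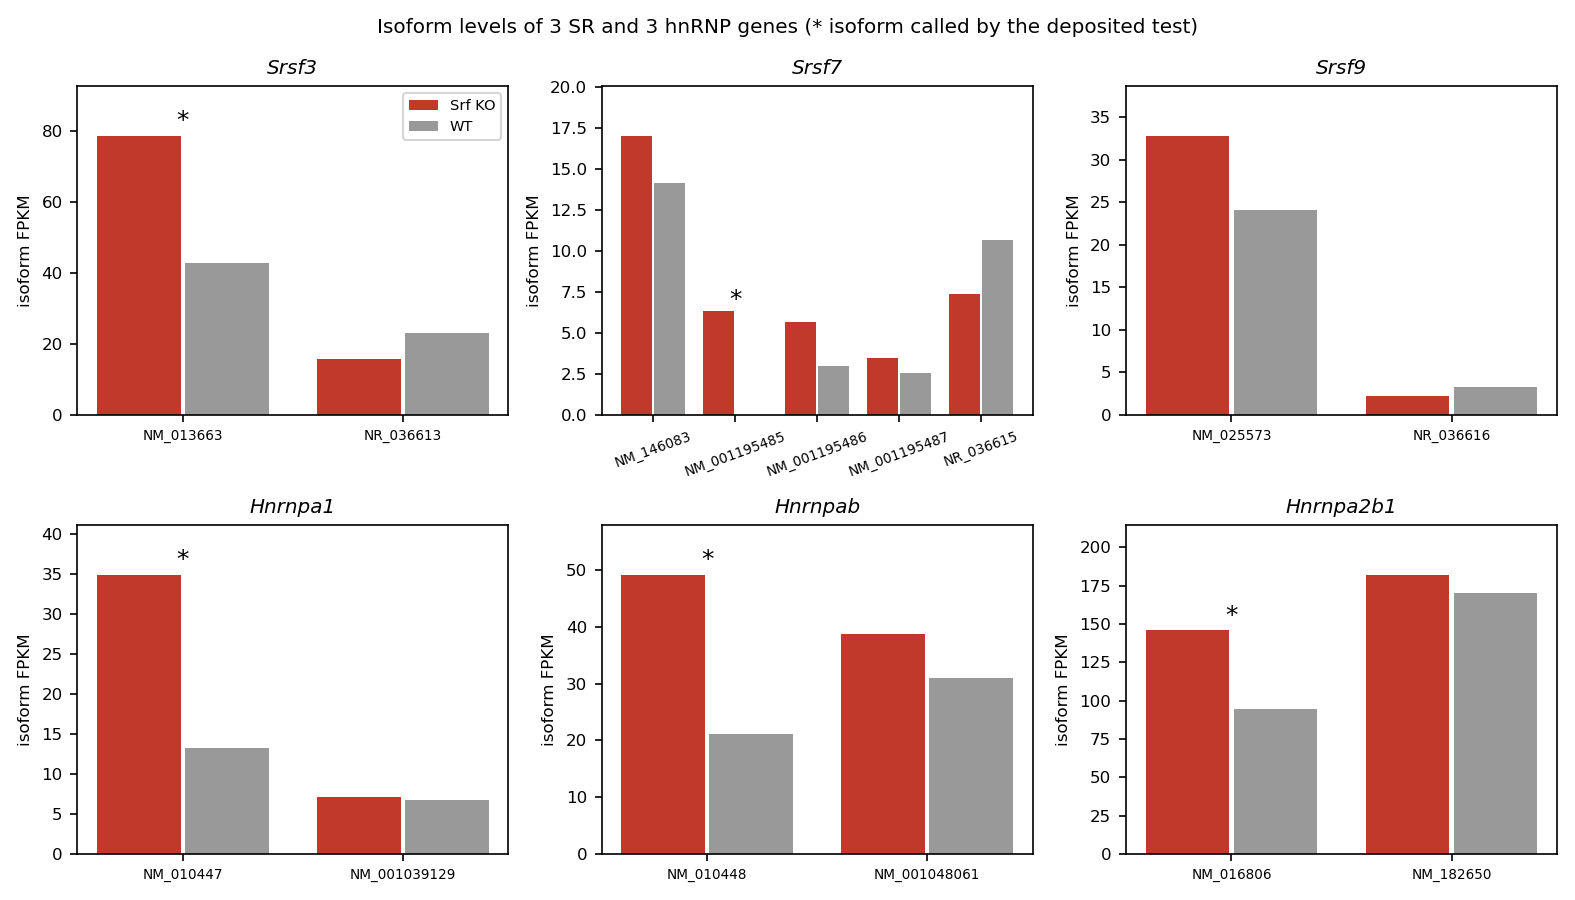
FPKM of each isoform of Srsf3, Srsf7, Srsf9, Hnrnpa1, Hnrnpab and Hnrnpa2b1, with the Srf KO bar left and the WT bar right; a star marks an isoform called in the authors' deposited table. For the 3 SR genes the non-coding form, named NR, is lower in Srf KO and the coding forms are higher, as in Srsf3, whose coding form had 78.6 FPKM in Srf KO and 42.9 FPKM in WT.

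The hnRNP genes went both ways: 5 of 18 were called higher and 2 lower, with a median log2 fold of 0.27. As shares these are 27.8% and 11.1%, against 17.7% and 17.8% of all tested genes. Differences between subfamilies were not tested. Of the 6 genes of the A/B and D types, RNA-binding proteins that often silence exons, 4 were called higher and none lower, with a median log2 fold of 0.71. The D-like gene Hnrpdl, whose symbol falls outside the name rule, had a log2 fold of 0.11 ± 0.19 and was not called. Of the 4 genes of the F/H type, which bind runs of G, none was called higher and 1 was called lower. Of the 3 genes of the U type, large nuclear scaffold proteins, none was called higher and 1 was called lower. With so few genes, 1 call is 25% of the F/H type and 33.3% of the U type. Of the 5 other hnRNP genes, 1 was called higher and none lower, with a median log2 fold of -0.15.

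Hnrnpa1, the classical antagonist of SR proteins, had 42.0 FPKM in Srf KO cells and 19.99 FPKM in WT cells. Its log2 fold was 1.07 ± 0.29, with an adjusted p of 0.00118 in the authors' deposited table. A row that also names Gm10052 shares its locus, and the gene has near-identical processed copies, so its level is uncertain. Hnrnpa0 had 27.7 FPKM in Srf KO cells and 16.0 FPKM in WT cells, a log2 fold of 0.79 ± 0.19 (adjusted p = 0.000345 in the authors' deposited table). Hnrnpab had 87.9 FPKM in Srf KO cells and 52.2 FPKM in WT cells, a log2 fold of 0.75 ± 0.23 (adjusted p = 0.00465 in the authors' deposited table), and Agxt2l2 lies at the same locus.

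Hnrnpd, also known as AUF1, a protein of AU-rich mRNA turnover, had 24.6 FPKM in Srf KO cells and 15.4 FPKM in WT cells, a log2 fold of 0.68 ± 0.22 (adjusted p = 0.0102 in the authors' deposited table). Hnrnpr, outside the A/B and D types, had 24.8 FPKM in Srf KO cells and 16.3 FPKM in WT cells, a log2 fold of 0.60 ± 0.19 (adjusted p = 0.00797 in the authors' deposited table). Hnrnpa3 had a fold of similar size but a wide SE and was not called, at 38.8 FPKM in Srf KO cells and 24.3 FPKM in WT cells (log2 fold 0.67 ± 0.35, adjusted p = 0.120 in the authors' deposited table). It had the largest fold of any uncalled member.

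Hnrnpul1, which acts in DNA repair and RNA processing, had the largest fall of all members. It had 42.5 FPKM in Srf KO cells and 74.0 FPKM in WT cells, a log2 fold of -0.80 ± 0.25 (adjusted p = 0.00577 in the authors' deposited table). Hnrnph2, an X-linked gene of the H type, had 39.3 FPKM in Srf KO cells and 53.5 FPKM in WT cells, a log2 fold of -0.44 ± 0.18 (adjusted p = 0.0462 in the authors' deposited table). The 2 hnRNP genes of highest level were not called. Hnrnpa2b1 had 328 FPKM in Srf KO cells and 265 FPKM in WT cells (log2 fold 0.31 ± 0.26, adjusted p = 0.355 in the authors' deposited table). Hnrnpf had 204 FPKM in Srf KO cells and 254 FPKM in WT cells (log2 fold -0.32 ± 0.20, adjusted p = 0.209 in the authors' deposited table).

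In 2 genes of the A/B type, Hnrnpab and Hnrnpa2b1, a coding exon can be skipped, and these exons are shown because the called and uncalled forms differ by them. The forms of both genes also differ outside the exon. Both are from mm10, 5′ to 3′ on the gene's strand: Hnrnpab at chr11:51601750-51601890 (minus strand, 141 bases) and Hnrnpa2b1 at chr6:51464428-51464547 (minus strand, 120 bases). No capitals are used. Each length is a multiple of 3, so that skipping keeps the frame.
Hnrnpab exon: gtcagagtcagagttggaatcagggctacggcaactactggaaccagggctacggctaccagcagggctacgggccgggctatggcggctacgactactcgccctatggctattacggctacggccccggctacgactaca
Hnrnpa2b1 exon: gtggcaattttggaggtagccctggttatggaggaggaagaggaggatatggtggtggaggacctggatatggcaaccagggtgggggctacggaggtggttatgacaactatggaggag
In Hnrnpab the form without the exon (NM_010448) had 49.1 FPKM in Srf KO cells and 21.2 FPKM in WT cells, a log2 fold of 1.21 ± 0.28 (adjusted p = 0.000177 in the authors' deposited table). The form with it (NM_001048061) had 38.8 FPKM in Srf KO cells and 31.1 FPKM in WT cells (log2 fold 0.32 ± 0.26, adjusted p = 0.397 in the authors' deposited table). Hnrnpa2b1 went the other way: the form with the exon (NM_016806) was the one called, at 146 FPKM in Srf KO cells and 94.3 FPKM in WT cells (log2 fold 0.63 ± 0.24, adjusted p = 0.0341 in the authors' deposited table). Its form without the exon (NM_182650) had 182 FPKM in Srf KO cells and 170 FPKM in WT cells (log2 fold 0.10 ± 0.33, adjusted p = 0.893 in the authors' deposited table). In Hnrnpa1, NM_010447 had 34.8 FPKM in Srf KO cells and 13.2 FPKM in WT cells, a log2 fold of 1.40 ± 0.34 (adjusted p = 0.000459 in the authors' deposited table). Its transcript NM_001039129 had 7.18 FPKM in Srf KO cells and 6.77 FPKM in WT cells (log2 fold 0.09 ± 0.57, adjusted p = 0.956 in the authors' deposited table). Whether forms of 1 gene differed in fold was not tested.

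Over all members, 24 of 96 tested isoforms were called higher and 4 lower, against 13.1% and 14.0% of all 14766 tested isoforms. At an adjusted p of at most 0.01, 17 were called in either direction, against 17.7% of all. A called isoform occurred in 4 genes not called themselves: Srsf3, Srsf7 and Hnrnpa2b1, as above, and Snrpa. In Snrpa the transcript NM_001046637 had 8.63 FPKM in Srf KO cells and 4.32 FPKM in WT cells (log2 fold 0.998 ± 0.34, adjusted p = 0.0170 in the authors' deposited table), while NM_015782, of the same coding length of 861 bases, had 4.37 FPKM in Srf KO cells and 4.18 FPKM in WT cells. In Lsm10 the transcript NM_138721 carried most of the fall, with 5.59 FPKM in Srf KO cells and 18.1 FPKM in WT cells (log2 fold -1.69 ± 0.41, adjusted p = 0.000454 in the authors' deposited table). Its other transcript (NM_001163266) had 21.2 FPKM in Srf KO cells and 24.8 FPKM in WT cells.

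Transcription start groups and coding sequences gave like counts. Of 66 start groups, 20 were called higher and 4 lower (background 15.1% and 16.1%), and of 81 coding sequences, 22 were called higher and 4 lower (background 14.4% and 15.8%). The start group called in an uncalled gene was that of Snrpa, which holds NM_001046637 and has the values given above. The 3 coding sequences called in uncalled genes were those of Srsf3, Srsf7 and Hnrnpa2b1, each with the FPKM of its called isoform.

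Pairs of isoforms with folds of opposite sign, at 1 FPKM or more, numbered 18 in 8 genes, and the widest gaps lay in Srsf and Hnrnpf transcripts. In Srsf11, NM_001093753 had a log2 fold of 0.47 ± 0.27 and NM_001093752 a log2 fold of -2.09 ± 1.85. In Hnrnpf, NM_001166432 had a log2 fold of -2.12 ± 0.999 and NM_001166427 one of -1.40 ± 9.21, against 0.30 ± 9.05 for NM_001166429. None of these transcripts was called, and the SEs of up to several log2 units leave their order unresolved.
In Srsf1, NM_173374 had 38.7 FPKM in Srf KO cells and 22.998 FPKM in WT cells (log2 fold 0.75 ± 0.31, adjusted p = 0.0603 in the authors' deposited table), and NM_001078167 had 3.798 FPKM in Srf KO cells and 7.55 FPKM in WT cells (adjusted p = 0.839 in the authors' deposited table). In Srsf5, NM_009159 had a log2 fold of 0.94 ± 1.59, against -0.62 ± 0.66 for NM_001079695 and -0.23 ± 0.51 for NM_001079694; none of them was called. The remaining pairs among the 8 widest set the non-coding forms of Srsf7 and Srsf3 against coding ones, in Srsf7 NM_001195486 with a log2 fold of 0.95 ± 0.61.

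Shorter transcripts tended to have higher folds across the whole data set, which touches the families unequally. The median transcript length was 837 bases for snRNP genes and 1074.5 bases for Lsm genes, against 2528 bases over all tested genes. SF3, SR and hnRNP genes had medians of 2459.5, 2436.5 and 2367 bases. Over the 59 members, the correlation across genes of fold with log10 length was -0.30 (Pearson) and -0.25 (Spearman), against -0.18 and -0.23 over 12428 genes. The genes are not independent, and they share the same libraries.

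When each fold was taken relative to the running median of all genes of its length, 14.2% of all genes with a length were called higher and 18.6% lower, and the snRNP median was 0.33 in place of 0.62 and 4 of 11 snRNP genes were called higher in place of 8. Those 4 were Snrpf, Snrpg, Snrpe and Snrpd1, with length-adjusted log2 folds of 0.85, 0.69, 0.63 and 0.59. Snrpd2, Snrpd3, Snrpa1 and Snrpb2 were no longer called. The ring of Lsm1 to Lsm7 kept 3 calls, Lsm5, Lsm6 and Lsm1, and lost Lsm2 and Lsm3. The hnRNP A/B and D types were called as before, 4 of 6, with a median of 0.78, and the SR genes still had 3 calls and a median of 0.38. Sf3b1 was no longer called under the length adjustment (log2 fold -0.36), whereas Sf3b3 was then called higher (log2 fold 0.49).

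**Figure D4:**
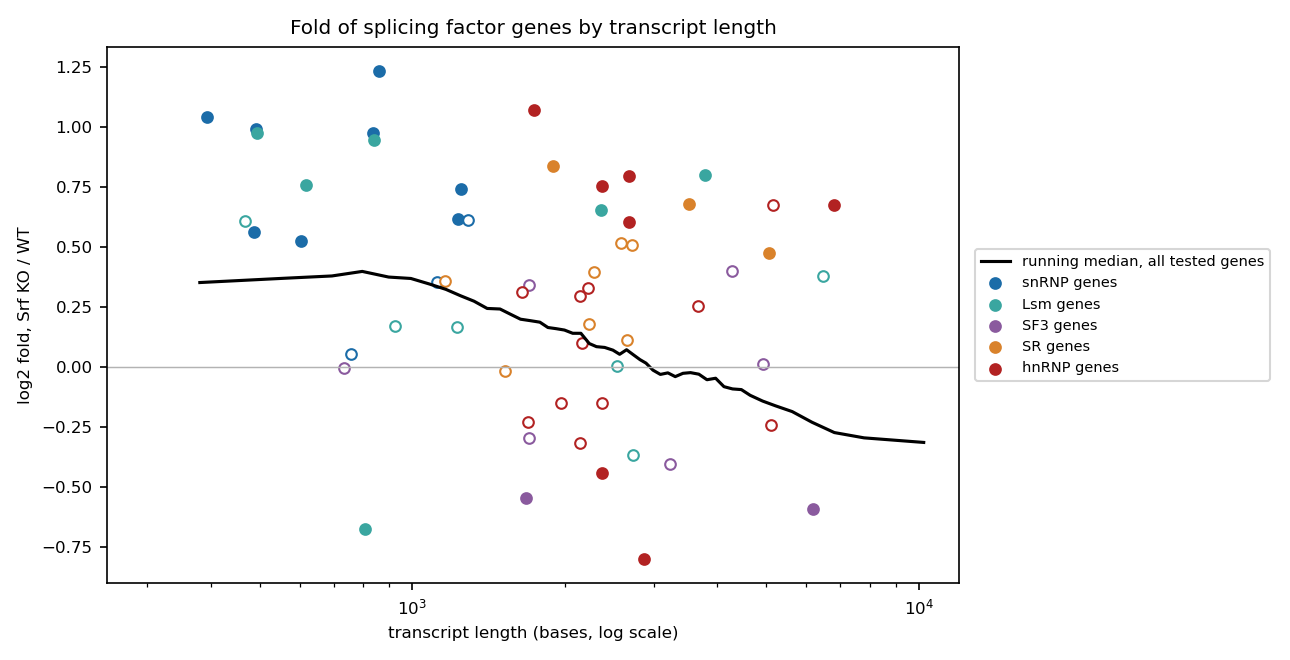
Log2 fold of each of the 59 genes, Srf KO over WT, against transcript length in bases on a log axis, coloured by family, with called genes filled; the black line is the running median of all tested genes. The Sm genes Snrpg, Snrpe, Snrpd1 and Snrpf lie well above the line among the shortest transcripts, and Srsf6, Hnrnpd and Lsm6 lie above it among long transcripts.

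In the list of factors that build snRNPs, 5 of 19 genes were called higher and none lower (26.3% higher, against 17.7% of all tested genes), and 14 were not called. The median log2 fold was 0.49, against 0.08 over all tested genes, and 17 of 19 had a Srf KO value above the WT value. Snupn, the import adaptor for new snRNPs, had 2.89 FPKM in Srf KO cells and 1.42 FPKM in WT cells, a log2 fold of 1.02 ± 0.32 (adjusted p = 0.00599 in the authors' deposited table). Gemin6, of the SMN complex, had 5.02 FPKM in Srf KO cells and 2.63 FPKM in WT cells, a log2 fold of 0.93 ± 0.30 (adjusted p = 0.00714 in the authors' deposited table). Prmt5, which methylates Sm proteins before assembly, had 5.85 FPKM in Srf KO cells and 3.34 FPKM in WT cells, a log2 fold of 0.81 ± 0.24 (adjusted p = 0.00337 in the authors' deposited table). Of its partners, Clns1a was called higher (log2 fold 0.76 ± 0.21), and Wdr77 had 16.1 FPKM in Srf KO cells and 24.1 FPKM in WT cells and was not called. Smn1 stood at 18.7 FPKM in Srf KO cells and 19.2 FPKM in WT cells.

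Among 35 other proteins of U1, U4/U6, U5 and the minor snRNPs, 3 were called higher and 7 lower (8.57% and 20%, against 17.7% and 17.8% of all tested genes). The median log2 fold was 0.18, and 20 of 35 had a Srf KO value above the WT value. Differences between lists were not tested. Nhp2l1, which binds the U4 RNA, was called higher, at 37.9 FPKM in Srf KO cells and 23.1 FPKM in WT cells (log2 fold 0.71 ± 0.20), as were Zcrb1 (0.68 ± 0.21) and Luc7l3 (0.57 ± 0.19). Dhx38, a helicase of the second step, was called lower, with 13.6 FPKM in Srf KO cells and 33.4 FPKM in WT cells (log2 fold -1.29 ± 0.19, adjusted p = 1.83e-10 in the authors' deposited table). Snrnp200, the U5 helicase that unwinds U4/U6, was also called lower, with 13.6 FPKM in Srf KO cells and 25.0 FPKM in WT cells (log2 fold -0.87 ± 0.18, adjusted p = 2.39e-05 in the authors' deposited table), and Sart3, a recycling factor of U4/U6, had a log2 fold of -0.74 ± 0.20. The others called lower were the helicase genes Dhx8 (-0.64 ± 0.19) and Ddx23 (-0.56 ± 0.19), with Prpf8 (-0.54 ± 0.18) and Prpf6 (-0.50 ± 0.19). The helicase genes Dhx15, at 36.9 FPKM in Srf KO cells and 37.0 FPKM in WT cells, and Dhx16, with a log2 fold of -0.32, were not called. In the list of branch point and 3′ splice site factors, 1 of 16 was called higher (Htatsf1, 0.59 ± 0.21) and 1 lower (Uhmk1, -1.23 ± 0.23). That is 6.25% in each direction, below the 17.7% and 17.8% of all tested genes.

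The list of proteins of the PRPF19 complex, which also holds the second-step factors Slu7, Prpf18 and Cdc40, had 2 of 19 genes called higher and 3 lower. Both shares were below those over all tested genes (17.7% higher and 17.8% lower). Ppie (log2 fold 0.77 ± 0.25) and Ppil1 (0.67 ± 0.23), both cyclophilins, were the higher ones, and Xab2 (-0.82 ± 0.20), Slu7 (-0.66 ± 0.24) and Prpf18 (-0.54 ± 0.19) the lower. The exon junction and decay list had 3 of 17 genes called in each direction, 17.6% each, which is close to the shares over all tested genes (17.7% higher and 17.8% lower). These were Magohb (0.92 ± 0.27), Upf3b (0.83 ± 0.22) and Magoh (0.58 ± 0.20) among the higher, and Upf1 (-0.98 ± 0.21), Smg1 (-0.69 ± 0.18) and Upf2 (-0.65 ± 0.19) among the lower. Upf1, Upf2 and Smg1 act in nonsense-mediated decay, the route that removes stop-exon forms of Srsf3 and Srsf7. Upf1 had 8.40 FPKM in Srf KO cells and 16.5 FPKM in WT cells (adjusted p = 4.78e-05 in the authors' deposited table).

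Kinases, a phosphatase and an importer of SR proteins had 2 of 11 genes called lower and none higher, with a median log2 fold of -0.31. The 18.2% called lower is close to the 17.8% of all tested genes. Ppp1ca had 270 FPKM in Srf KO cells and 414 FPKM in WT cells (log2 fold -0.61 ± 0.20), and Clk3, a nuclear kinase of SR proteins, had 23.4 FPKM in Srf KO cells and 32.8 FPKM in WT cells (-0.49 ± 0.19). Among 52 SR-related proteins and other regulators, 3 were called higher and 10 lower, with a median of 0.03. The 19.2% called lower is again close to that of all tested genes, and 5.77% were called higher. Srek1 (log2 fold 0.55 ± 0.21), Tra2b (0.49 ± 0.19) and Pcbp1 (0.44 ± 0.18) were higher. Pcbp4 (-1.03 ± 0.38), Srrm2 (-0.99 ± 0.20) and Scaf1 (-0.86 ± 0.21) led the lower ones. Over all 7 lists together, 17 of 169 tested genes were called higher and 26 lower, with a median log2 fold of 0.03. As shares, 10.1% were called higher and 15.4% lower, both below the shares over all tested genes.

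**Figure D5:**
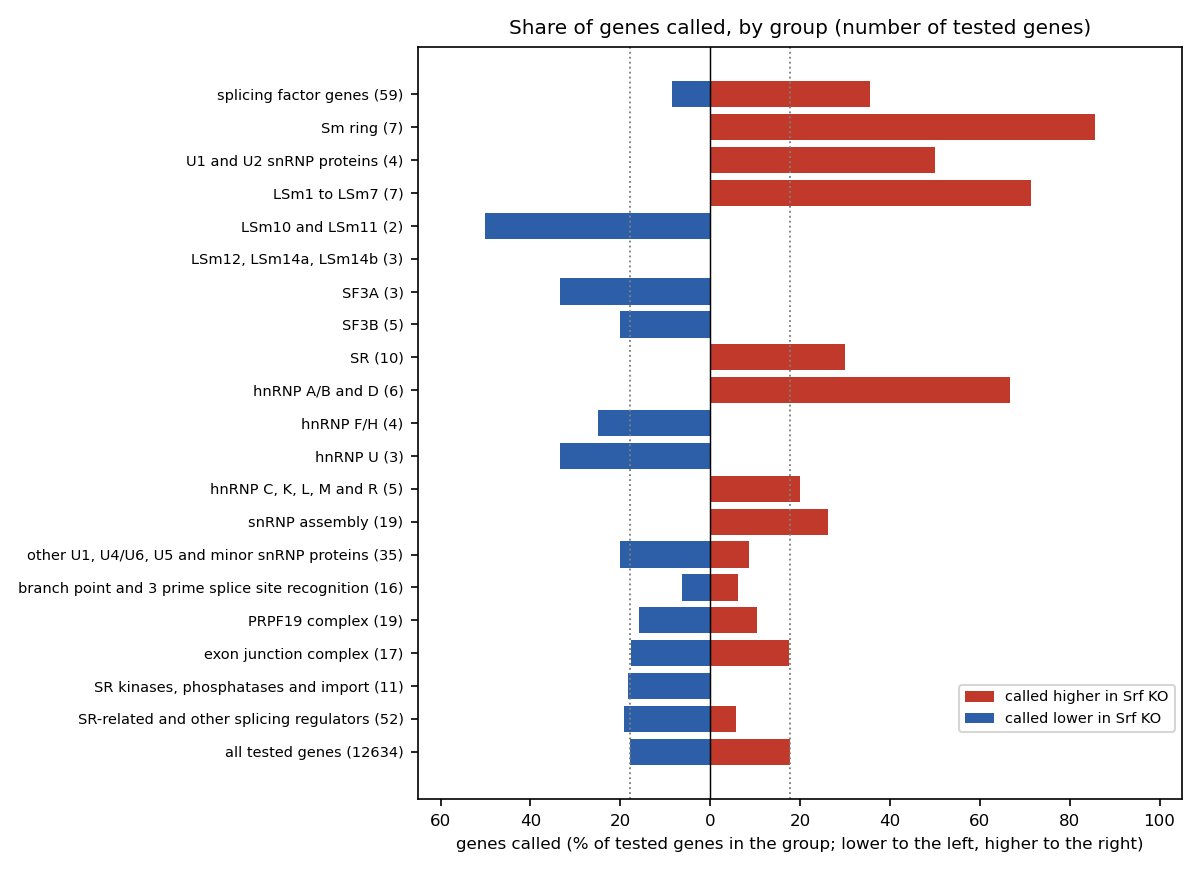
Share of tested genes called in each group, in percent, with genes lower in Srf KO to the left and higher in Srf KO to the right; dotted lines mark the shares over all tested genes, 17.8% lower and 17.7% higher. The Sm ring, Lsm1 to Lsm7 and hnRNP A/B and D bars reach furthest right, and no SF3 bar reaches right. The group labelled PRPF19 complex also holds the second-step factors Slu7, Prpf18 and Cdc40.

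Levels of marker genes for neutrophils, other cell types and the cell cycle also differed between the genotypes, in both directions. Srf itself was at 0.439 FPKM in Srf KO cells and 13.7 FPKM in WT cells, a log2 fold of -4.97 ± 0.27. All 24 cell cycle genes had a Srf KO value above the WT value and 17 were called higher, with summed levels of 1722 FPKM in Srf KO cells and 1057 FPKM in WT cells. Neutrophil markers were abundant in both genotypes, with a sum over 10 tested genes of 21059 FPKM in Srf KO cells and 31646 FPKM in WT cells, 2 called higher (Mpo and Fcnb, of immature cells) and 5 lower. The authors' test also skipped 5 very abundant ones, namely Ltf, S100a8, Camp, S100a9 and Ngp. In the primary granule list 6 of 10 genes were called higher and 1 lower (Srgn, log2 fold -1.13 ± 0.18).

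Many markers of other lineages were called higher. Of the T and NK cell genes 11 of 12 were called higher, with sums of 121 FPKM in Srf KO cells and 51.9 FPKM in WT cells. Nkg7, which is also in the primary granule list, gave 52.8 FPKM and 24.1 FPKM of these sums. Of the B cell genes 4 of 8 were called higher (186 FPKM in Srf KO cells and 123 FPKM in WT cells), and of the erythroid genes 8 of 10 (211 FPKM in Srf KO cells and 147 FPKM in WT cells). Most of the erythroid sums came from Hbb-b2, which was not called, at 158 FPKM in Srf KO cells and 128 FPKM in WT cells. Of the platelet genes 6 of 9 were called higher, with sums of 63.2 FPKM in Srf KO cells and 22.5 FPKM in WT cells and Gp6 listed at 0 in WT cells. Macrophage genes went both ways, with 6 of 9 called higher and 3 lower (212 FPKM in Srf KO cells and 208 FPKM in WT cells). The part of these markers in the rise of the Sm, LSm and hnRNP A/B and D genes was not tested.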

How the data were processed

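Messenger RNA was measured in 2 Srf KO and 2 WT samples of sorted mouse bone marrow neutrophils, each assigned by its labelled genotype. Per the labels' protocols the TruSeq RNA kit v2 was used, which does not keep strand. Per the submitters' processing notes, with no settings stated, the build was mm10 and the tools were TopHat2 2.0.0, Cufflinks 2.0.0 and CASAVA 1.8.1. The 4 tables hold genes, isoforms, transcription start groups and coding sequences. FPKM values are as the authors deposited them, pooled per genotype, so that depth is unknown and no test on samples could be run. How reads shared by near-identical copies, such as the processed copies of Sm and hnRNP genes, were divided is not stated in the sources used here.

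The fold, a score column that is log2 of WT over KO per the file headers, was replaced by log2 of the Srf KO over the WT FPKM. The test statistic, also a score, is the authors' deposited value, and the fold divided by it gave the SE. The p-value and q-value (adjusted p) are those the authors deposited. They were checked against a 2-sided normal tail of the statistic and a Benjamini-Hochberg adjustment over tested rows, with no mismatch in calls. A planned count test could not be used, because the files hold no counts.

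Members and gene lists were chosen with earlier results of these data known. Genes were named by a fixed rule: the largest called folds of each family, its 2 most abundant genes, the 3 genes nearest the threshold on either side, the leading called genes of each list, and isoforms that differ from their gene. Transcript lengths came from GENCODE exons within the authors' loci, for 99.0% of 12552 genes with a fold, and the running median used 50 length bins. Promoter windows came from RefSeq and exon sequences from the GRCm38 genome. Alternatives were other thresholds, FPKM minimums, a minimum fold, centred or length-adjusted folds, pseudocounts and summed isoforms. Scripts were tested on simulated data and run in Python 3.11.15 with matplotlib 3.10.9, scipy 1.17.1, numpy 2.4.6 and pandas 2.3.3.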

Additional observations from a re-analysis of the deposited data

How the results depend on the processing

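The counts of members called higher and the family medians kept their direction under each alternative run. At an adjusted p of at most 0.01, members called lower numbered 2, of which SF3 1, hnRNP 1 and Lsm 0, and called isoforms numbered 17; at 0.1, SR genes called higher numbered 5 and SF3 genes called higher 1. With a minimum of 1.5-fold, 3 members were called lower, 1 of them SF3 and 1 hnRNP. Folds centred on the median of all tested genes (0.08) gave 2 Lsm genes called lower; Snrpd2, Snrpd3 and Srsf1 lost their call (adjusted p of 0.0508, 0.0586 and 0.106), and Lsm14a and Sf3b2 gained one. Length-adjusted folds gave 4 snRNP genes called higher with a median of 0.33, and 1 SF3 gene called in each direction with a median of -0.37. Without the 9 members whose loci hold other genes, an alternative chosen after seeing the data, 3 hnRNP genes were called higher and the SF3 median was -0.35. Signs turned only in uncalled genes: centred folds were -0.0737 for Lsm14b, -0.0685 for Sf3a1 and -0.0234 for Snrpc, and length-adjusted folds were -0.0314 for Hnrnph3, -0.14 for Lsm12, -0.0545 for Lsm14b, -0.20 for Lsm4 and -0.34 for Snrpc. With a minimum of 5 FPKM, Srsf3 was called as well. Pseudocounts, summed isoforms and a minimum of 1 FPKM changed no call or sign. No gene cell of a member names several genes, so leaving such rows out removed none.

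No paired analysis was possible because the tables hold no values per sample, and for the same reason no replicate was left out. The number of samples, the unknown depth and the pooled values limit every result, and isoform levels rest on the authors' division of shared reads. The cause of the changes between settings was not tested.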
